A study of Mus musculus with 48 samples.

Results

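The comparison described here asks whether anti-PD-1 given just before 20 Gy was followed by the same expression differences in 2 kinds of mouse sarcoma. For each gene the anti-PD-1 minus isotype log2 difference was taken in irradiated primary sarcomas and in irradiated allografts, and the allograft value was subtracted from the primary value. The result is called the difference of differences below, and a positive value means that the anti-PD-1 minus isotype difference was higher in the primary sarcomas. It rests on the 24 irradiated tumours of the 48 in the series, chosen by their group labels: 8 primary sarcomas with isotype antibody, 8 primary sarcomas with anti-PD-1, 4 allografts with isotype antibody and 4 allografts with anti-PD-1.

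All animals were on the 129/SvJae background. Primary p53/MCA sarcomas arose in p53FL/FL mice, 6 to 10 weeks old at induction, after Adeno-Cre injected into the gastrocnemius muscle deleted the floxed p53 alleles and 300 µg of the carcinogen MCA was placed there. The allografts grew from 50000 cells of 1 cell line, 402230, injected with matrigel into the gastrocnemius of syngeneic mice, so that they are transplants of 1 line into hosts whose own genotype the labels do not give. Tumours of about 150 mm3 received 200 µg of muDX400, a murine anti-PD-1 antibody, or an isotype control, then 20 Gy to the tumour-bearing hind limb, and were taken 3 days later for poly(A) RNA-seq. The 24 libraries held 31.8 to 53.3 × 10⁶ counts.

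PD-1, encoded by Pdcd1, is an inhibitory receptor on activated T cells; its ligands PD-L1 (Cd274) and PD-L2 (Pdcd1lg2) are carried by tumour and myeloid cells and are induced by interferon gamma. An antibody that blocks the receptor releases T cells, whose interferon gamma acts on chemokine and antigen-presentation genes. Natural killer cells, macrophages, vessels, stroma and the tumour cells themselves all add RNA to a bulk tumour sample. In such samples fewer cells of a type and less RNA per cell cannot be told apart.

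In the count model fitted to all 48 tumours (edgeR's quasi-likelihood test), 0 of 19327 genes passed an adjusted p of 0.05 in the difference of differences (0%), and the smallest adjusted p was 0.512. At an unadjusted p below 0.05 there were 1864 genes (9.64%), 829 with a higher value in the primary sarcomas (4.29%) and 1035 with a lower one (5.36%). limma voom with a quality weight per group called 0 genes, with 1932 at an unadjusted p below 0.05, of which 1056 were higher and 876 lower, and DESeq2 called 2 (0.0103%), Dmp1 and Skint3. The balance of directions turned in other fits too: there were 536 higher and 465 lower with liver RNA as a covariate, and 1259 and 1038 without anti-PD-1 allograft replicate 1. It kept its direction in the 24 irradiated tumours alone, with 499 higher and 920 lower. The median standard error of a gene's difference of differences was 0.44 on the log2 scale. The values below are therefore levels, differences and 95% intervals; genes with an unadjusted p below 0.05 are counted beside the share over all genes, and none of them passed the adjusted threshold in edgeR.

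The tumours of a group were unequal before any comparison. The biological coefficient of variation, the relative spread between tumours of a group, was 0.554 in the irradiated primary sarcomas and 0.399 in the irradiated allografts. Muscle actin Acta1 ran from 2.19 to 19390 CPM (counts scaled to a common library total, with TMM factors) over the primary sarcomas with anti-PD-1, from 67.9 to 10166 CPM over those with isotype, from 23.2 to 2774 CPM over the isotype allografts and from 599 to 2646 CPM over the anti-PD-1 allografts. The lowest and the highest tumour in muscle RNA were both primary sarcomas with anti-PD-1. Collagen Col1a1, a gene of mesenchymal tumours and stroma, was at 597 CPM or more in all 24 tumours, and Ptprc, the pan-leukocyte marker CD45, was at 310 to 620 CPM in the allografts and 59.9 to 386 CPM in the primary sarcomas. Serum albumin Alb, made by the liver, was at 303 CPM in anti-PD-1 allograft replicate 3 and at 0.459 to 1.22 CPM in the other 3 tumours of its group. Isotype allografts spanned 0.0253 to 27.0 CPM, primary sarcomas 0.106 to 38.0 CPM with isotype and 0.0987 to 12.9 CPM with anti-PD-1. The primary groups also differed in their Alb medians, 9.48 CPM with isotype and 0.544 CPM with anti-PD-1. The first digit of the animal identifier was 5 in 3 of 4 anti-PD-1 allografts, 1 of 4 isotype allografts, 1 of 8 isotype primary sarcomas and 0 of 8 anti-PD-1 primary sarcomas; the labels do not say what it stands for.

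Of the 3 genes of the PD-1 axis, Cd274 alone had allograft groups that did not overlap. Cd274, on chr19:29367455-29388095 (mm10), was at 77.8, 81.9, 89.4 and 100.04 CPM in the 4 isotype allografts and at 111.4, 107.6, 160.04 and 163 CPM in the 4 with anti-PD-1. In the primary sarcomas its lowest, median and highest values were 31.8, 52.2 and 103.3 CPM with isotype and 11.3, 53.7 and 107.02 CPM with anti-PD-1. The 2 allograft groups did not overlap and the primary groups overlapped almost entirely. The log2 difference was 0.63 ± 0.52 (SE) in the allografts and 0.11 ± 0.37 in the primary sarcomas, and the difference of differences was −0.52 ± 0.64, with a 95% interval from −1.80 to 0.76 (edgeR adjusted p = 0.763). Leaving out 1 tumour it ran from −0.69 to −0.35, and over the other alternatives from −0.74 to −0.0668. Over all genes, 0.973% had every anti-PD-1 allograft above every isotype allograft and 0.59% had every one below, and in the primary sarcomas 1 gene (0.00517%) was all above and 2 (0.0103%) all below. Groups of 4 separate more easily than groups of 8, so these shares cannot be set against each other, and 1 such gene among 3 is no result about the axis.

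Ctla4, an inhibitory receptor of activated and regulatory T cells on chr1:60887000-60915832, was the other gene of the 22-gene PD-1 and T cell panel whose allograft groups did not overlap. It stood at 3.29, 2.03, 5.43 and 2.71 CPM in the isotype allografts and at 6.06, 10.1, 10.6 and 11.9 CPM with anti-PD-1. The primary sarcomas spanned 0.703 to 15.1 CPM with isotype (median 2.59) and 0.645 to 17.4 CPM with anti-PD-1 (median 3.61). Its difference of differences, −1.58 ± 0.91 (95% interval −3.41 to 0.26, adjusted p = 0.550), had the smallest p of the panel in edgeR. An exact permutation test of the antibody labels within tumour kind, on log2 CPM and 2-sided over 900900 arrangements, gave p = 0.0857 for Ctla4 and 0.0828 for Gzmb, both unadjusted. The costimulatory receptor Tnfrsf4 (OX40) separated in the same way in the allografts, at 2.41 to 3.76 CPM with isotype and 5.61 to 8.03 CPM with anti-PD-1, and its difference of differences was −1.20 ± 0.69 (adjusted p = 0.550). The receptor Pdcd1 did not separate: isotype allografts were at 6.99 to 12.8 CPM and anti-PD-1 allografts at 8.80 to 18.2 CPM, and the difference of differences was −0.36 ± 0.96. Pdcd1lg2 gave −0.46 ± 0.90. Without anti-PD-1 primary replicate 4 the values of Ctla4, Pdcd1 and Pdcd1lg2 were −2.30, −1.30 and −1.38, and without isotype primary replicate 5 they were −1.05, 0.14 and −0.21; with the identifier digit as a covariate Pdcd1lg2 was −0.007.

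T cell genes varied more between tumours of a group than between groups. Cd8a, the coreceptor of cytotoxic T cells, was at 13.3, 15.8, 26.3 and 21.98 CPM in isotype allografts and at 16.7, 44.7, 45.3 and 17.9 CPM with anti-PD-1, so that replicates 2 and 3 of the latter were the high ones. In the primary sarcomas Cd8a ran from 0.885 through a median of 4.84 to 12.3 CPM with isotype and from 0.606 through 4.77 to 40.3 CPM with anti-PD-1, where replicate 4 was the highest. The Cd8a difference of differences was 0.13 ± 1.02, with a 95% interval from −1.94 to 2.19. The T cell receptor subunit Cd3e gave 0.16 ± 1.02, and Cd4, the coreceptor of helper T cells, −0.81 ± 0.79, which was −1.52 without anti-PD-1 primary replicate 4 and −0.33 without anti-PD-1 allograft replicate 2. The signs of Cd3e and Cd8a did not hold for every alternative: for Cd3e the value was −1.17 in limma and −0.06 with muscle RNA as a covariate, and for Cd8a it was −0.66 in limma. Of 16 T cell receptor and coreceptor genes, 15 had a higher mean with anti-PD-1 in the allografts and 14 in the primary sarcomas, with median log2 differences of 0.80 and 0.26, and 0 had an unadjusted p below 0.05 in the difference of differences. Anti-PD-1 primary replicate 4 was the highest of its group for 15 of the 16, with a mean log2(CPM + 1) of 5.03 beside 1.32 to 3.80 in the other 7 and 1.32 to 4.14 in the isotype group. That tumour also had the most muscle RNA and, at 2.32%, the largest mitochondrial share of counts among the primary sarcomas. The part of either was not tested. The list median of the difference of differences was −0.50, −1.32 without that tumour, −0.19 without isotype primary replicate 5 and 0.0963 with liver RNA as a covariate.

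Effector genes were on both sides of 0. Granzyme B, Gzmb, a killing enzyme of T and natural killer cells, was at 165, 128.2, 165 and 197 CPM in isotype allografts and 246.5, 145.9, 393 and 224.5 CPM with anti-PD-1. Its primary values were 38.4, 71.99 and 176 CPM (lowest, median, highest) with isotype and 4.91, 61.6 and 145.9 CPM with anti-PD-1; the lowest belonged to replicate 5. The Gzmb difference of differences was −1.01 ± 0.92 (adjusted p = 0.683), perforin Prf1 gave 0.27 ± 0.95 and interferon gamma, Ifng, −0.47 ± 1.16. Leaving out 1 tumour Gzmb ran from −1.22 to −0.68, and over the other alternatives from −1.23 to −0.35. Of 15 cytotoxic genes 9 were below 0 and 6 above, with a median of −0.29 beside 0.03 for all genes tested, and 0 had an unadjusted p below 0.05. The median was between −0.52 and −0.0838 when 1 tumour was left out, at the ends without anti-PD-1 primary replicate 4 and isotype primary replicate 5, and turned to 0.24 with liver RNA as a covariate.

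The regulatory T cell and costimulation list and the T cell chemokine list had all their tested members below 0: 0 of 12 and 0 of 13 were above, where 52.2% of all genes were. Regulatory T cell factor Foxp3 stood at −0.45 ± 0.95 (−1.55 without anti-PD-1 primary replicate 4 and 0.031 without anti-PD-1 allograft replicate 4), the receptor Icos at −0.55 ± 0.91 and interleukin Il10 at −1.05 ± 0.73, with a list median of −0.49 that was −1.44 without anti-PD-1 primary replicate 4 and 0.0094 with liver RNA as a covariate. Among chemokines, Cxcl9, which draws activated T cells, gave −0.35 ± 0.93. Xcl1, made by natural killer and CD8 T cells to draw cross-presenting dendritic cells, gave −2.16 ± 0.90 (adjusted p = 0.512) and was the only member of 13 with an unadjusted p below 0.05, a share near the 5.36% of all genes in that direction. Xcl1 was at 2.03 to 4.58 CPM in isotype allografts and 3.03 to 8.25 CPM with anti-PD-1, and at 1.09 to 22.6 CPM in isotype primary sarcomas and 0.196 to 6.14 CPM with anti-PD-1. The chemokine list median was −0.63, −0.40 without anti-PD-1 allograft replicate 3 and −0.15 with liver RNA as a covariate. Members of a list are not independent of each other, and the part of T cell content in their shared sign was not tested.

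Interferon response genes gave mostly negative values. Of 21 interferon gamma response genes 2 were above 0 (median −0.32), and in the allografts 20 had a positive anti-PD-1 minus isotype difference, against 6 in the primary sarcomas. In the difference of differences 0 of the 21 and 0 of the 22 type I interferon genes had an unadjusted p below 0.05, and the 1 interferon gamma gene below it in the primary sarcomas was higher with anti-PD-1. Anti-PD-1 primary replicate 5, the tumour with the lowest Ptprc, was lowest of its group for 19 of 21, with a mean log2(CPM + 1) of 4.88 beside 6.33 to 7.79 in the other 7. Without it the interferon gamma list median was −0.18; it was −0.17 without anti-PD-1 allograft replicate 4, −0.18 without isotype primary replicate 5 and −0.12 with liver RNA as a covariate. The 22 type I interferon genes had a median of −0.31, and all 22 had a negative difference in the primary sarcomas, with a median of −0.45; 3 of them had an unadjusted p below 0.05 there, all negative, beside 3.59% of all genes in that direction. In the anti-PD-1 primary group, replicates 5 and 4 stood apart, at mean log2(CPM + 1) values of 5.38 and 5.76 beside 6.90 to 7.71 in the other 6, and were lowest for 16 and 6 of the 22. The list median of the difference of differences was −0.20 without replicate 5, −0.19 without replicate 4, −0.0501 without anti-PD-1 allograft replicate 1 and −0.55 without isotype allograft replicate 1.

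Mndal and Oas1c were the 2 genes whose irradiated primary sarcomas were all lower with anti-PD-1, and none of the 21 and 22 genes of the interferon lists was. Mndal, of the Ifi200 family, was at 76.3 to 100.1 CPM with isotype and 30.3 to 76.3 CPM with anti-PD-1, the 2 nearest tumours being at almost the same level. Oas1c, of the oligoadenylate synthetase family, was at 6.98 to 14.9 CPM with isotype and 1.62 to 6.63 CPM with anti-PD-1. In the allografts Mndal was at 68.7 to 106.8 CPM with isotype and 77.4 to 100.7 CPM with anti-PD-1, and Oas1c at 5.70 to 11.5 and 5.12 to 10.4 CPM. The difference of differences was −0.64 ± 0.36 for Mndal (adjusted p = 0.544) and −1.01 ± 0.51 for Oas1c (adjusted p = 0.518); both genes were named after their values were seen, and each belongs to a family of similar sequences between which reads can be shared.

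**Figure D1:**
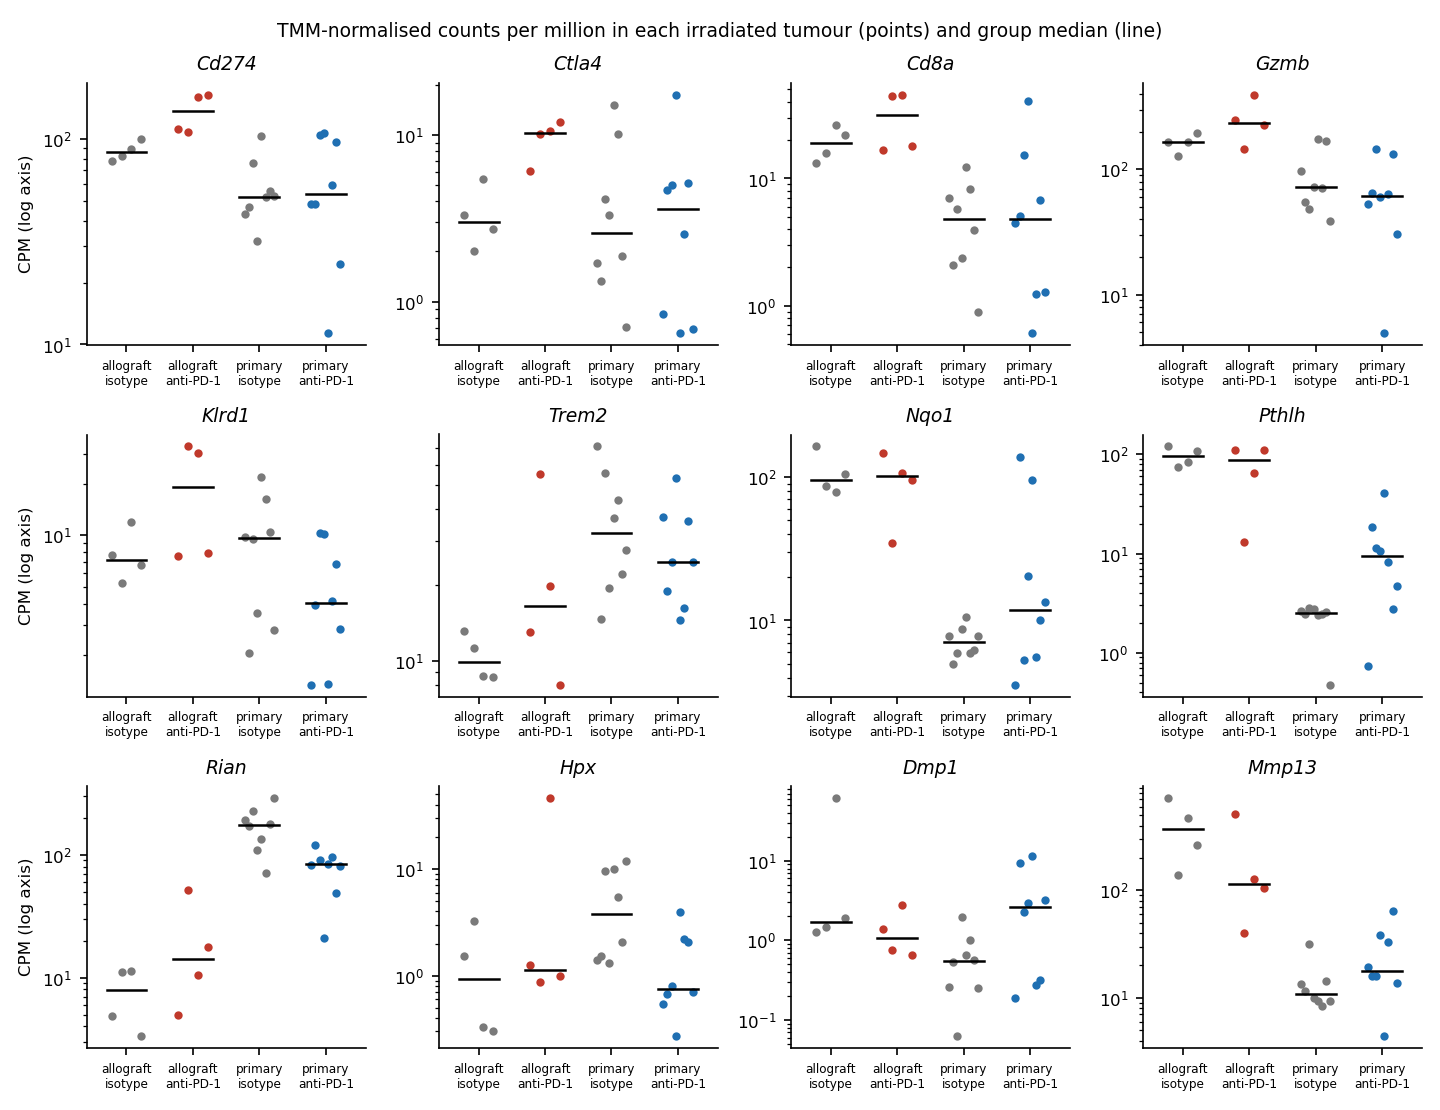
TMM-normalised CPM (log axis) of 12 genes in each of the 24 irradiated tumours, with points for tumours and a line for the group median; groups are allografts with isotype (4), allografts with anti-PD-1 (4), primary sarcomas with isotype (8) and primary sarcomas with anti-PD-1 (8). Cd274 and Ctla4 separate the allograft groups, Nqo1 and Pthlh have some primary tumours with anti-PD-1 far above every isotype one, and Hpx and Dmp1 each have 1 allograft far above the rest of its group.

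Natural killer genes had the most negative median among immune lists but for mast cells. All 8 members tested were below 0, with a median of −1.71, and 4 of 8 (Ncr1, Klre1, Klrd1 and Klra8) had an unadjusted p below 0.05, where 5.36% of all genes had one in that direction. The list was chosen with earlier results of these data known, so that share is no test of it. All 8 had a positive anti-PD-1 minus isotype difference in the allografts (median 0.81) and all 8 a negative one in the primary sarcomas (median −0.94). Klrd1 (CD94), the shared subunit of the CD94 and NKG2 receptors on chr6:129591782-129598775, was at 7.65, 5.29, 12.0 and 6.74 CPM in isotype allografts and at 7.56, 33.0, 30.3 and 7.91 CPM with anti-PD-1. Primary sarcomas ran from 2.07 through 9.63 to 22.04 CPM with isotype and from 1.34 through 4.04 to 10.3 CPM with anti-PD-1. The allograft difference thus came from replicates 2 and 3, while replicates 1 and 4 lay inside the isotype range. Replicates 2 and 3 also had the largest share of counts on mitochondrial genes in the allografts, 2.71% and 1.96%, beside 0.483% and 0.698% in replicates 1 and 4 and 0.629% to 0.937% with isotype. Their mean log2 CPM over muscle genes was 9.50 and 9.06, beside 7.16 and 6.61 in replicates 1 and 4 and 2.29 to 9.25 with isotype; the part of either in the Klrd1 and Cd8a values was not tested. The Klrd1 difference of differences was −2.22 ± 0.84 (95% interval −3.91 to −0.52; adjusted p = 0.512).

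The other 7 natural killer genes had the same order of group medians within each tumour kind. Ncr1, the activating receptor NKp46, had medians of 3.63 and 7.66 CPM in isotype and anti-PD-1 allografts and of 6.72 and 4.01 CPM in the primary sarcomas, and gave −1.69 ± 0.80. Klre1 gave −2.14 ± 0.84. Counts assigned to Klra8, a gene of the Ly49 receptor family, gave −2.58 ± 1.26 at medians of 0.106 to 0.691 CPM. Klra genes are near-identical copies between which reads can be split, so these counts need not come from Klra8 itself. The list median stayed between −2.03 and −1.48 when any 1 of the 24 tumours was left out and was −1.34 with liver RNA as a covariate. At 0 Gy, in 24 other tumours, the same list had a median of −1.004.

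Mast cell genes were low in count and uneven. All 9 were below 0 with a median of −1.77, and 0 of 9 had an unadjusted p below 0.05. The protease Mcpt4 was at 0.857, 4.37, 8.33 and 2.79 CPM in isotype allografts and 1.40, 22.5, 7.50 and 11.3 CPM with anti-PD-1, against 0.847 to 68.7 and 1.41 to 34.0 CPM in the primary sarcomas. With the first identifier digit as a covariate the list median was −0.21, so the mast cell value and the identifier digit moved together; their part in the result was not tested further. B cell and plasma cell genes, of which Fcer2a was not tested for low counts, had 1 of 9 members above 0 and a median of −0.88, led by the B cell surface protein Ms4a1 (CD20) at −1.99 ± 1.002.

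Among macrophage genes, with a median of −0.31, 2 of 15 had an unadjusted p below 0.05, both negative, where 5.36% of all genes did; the median was −0.10 without anti-PD-1 allograft replicate 2. Trem2, a lipid receptor of tumour macrophages, gave −1.58 ± 0.58 (adjusted p = 0.512), at 13.1, 11.2, 8.66 and 8.61 CPM in isotype allografts and 13.0, 55.4, 19.9 and 8.01 CPM with anti-PD-1. Replicate 2 of the anti-PD-1 allografts was far above the rest, and without it the value was −0.72. This tumour also had the largest mitochondrial share of counts, 2.71%, and the most muscle RNA of the allografts, and the part of either was not tested. Lyz2, the lysozyme of myeloid cells, gave −1.27 ± 0.58. The general macrophage marker Adgre1 (F4/80) gave −0.31 ± 0.53 and was also highest in replicate 2, at 583 CPM beside 238 to 244 CPM in the other 3; without it the value was 0.15.

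Neutrophil genes were split. The gelatinase Mmp9 gave 2.77 ± 1.22 (adjusted p = 0.512) and was the only 1 of 15 with an unadjusted p below 0.05, a share near the 4.29% of all genes in that direction. It was at 71.5 to 391 CPM in isotype allografts, 57.3 to 139.1 CPM in anti-PD-1 allografts, 44.8 to 538 CPM in isotype primary sarcomas and 37.1 to 2103 CPM in anti-PD-1 primary sarcomas. Its companion collagenase Mmp8 gave 2.54 ± 1.27, whereas the alarmins S100a8 and S100a9 gave −0.41 ± 1.81 and −1.29 ± 1.90. The list median of −0.30 turned to 0.45 without isotype primary replicate 3 and was −0.79 without anti-PD-1 primary replicate 6, so it has no settled direction.

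Genes induced by NRF2, the transcription factor of the antioxidant response, gave the most positive list median. Of 12 members 11 were above 0 and 7 had an unadjusted p below 0.05, all positive, where 4.29% of all genes did. The median was 1.10. This list was chosen with earlier results of these data known, so that share is no test of it. NRF2 is held low by KEAP1 and, when released, binds antioxidant response elements before genes of glutathione synthesis, quinone reduction and the pentose phosphate pathway. RefSeq promoter windows (GRCm38.p6, 250 bases before to 50 after the start) were found for 9 of the 12 genes, and 5 of the 9 held the core element TGACNNNGC on either strand, which stands in 14% of the 27025 genes with a window. Gclm, Txnrd1 and G6pdx had both a match and an unadjusted p below 0.05, and Srxn1 and Prdx1 a match only. The windows of Gclm and Txnrd1 are shown as examples, those of the 3 with the smaller p; RefSeq gives 3 start sites for Txnrd1, and the windows of the other 2 held no match; each reads 5′ to 3′ on the gene's strand, and the capitals mark the element, which in both lies on the opposite strand and is printed here as its reverse complement.
Gclm, chr3:122245307-122245606, + strand: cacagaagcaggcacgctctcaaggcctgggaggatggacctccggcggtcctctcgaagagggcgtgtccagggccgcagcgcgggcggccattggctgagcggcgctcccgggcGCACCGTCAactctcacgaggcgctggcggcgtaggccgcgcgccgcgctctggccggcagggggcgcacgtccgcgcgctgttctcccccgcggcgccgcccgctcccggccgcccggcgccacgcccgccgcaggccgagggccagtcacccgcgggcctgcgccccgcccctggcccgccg
Txnrd1, chr10:82858956-82859255, + strand: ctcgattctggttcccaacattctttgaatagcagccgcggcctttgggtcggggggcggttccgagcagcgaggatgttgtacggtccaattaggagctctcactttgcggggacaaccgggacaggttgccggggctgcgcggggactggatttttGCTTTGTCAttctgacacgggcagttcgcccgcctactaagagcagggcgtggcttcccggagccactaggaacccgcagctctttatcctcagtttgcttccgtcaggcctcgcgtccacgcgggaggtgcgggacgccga
Both matches lie upstream of the start. Nqo1, Slc7a11, Gstm1 and Osgin1 had no match in their windows, which says only that these letters are not there. A match is a description of sequence, and no binding was measured.

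Nqo1, the quinone reductase on chr8:107388225-107403206, was at 163, 86.5, 78.7 and 105.3 CPM in isotype allografts and at 147, 34.6, 107.5 and 94.7 CPM with anti-PD-1. Among primary sarcomas the isotype group was narrow, 4.99 to 10.6 CPM with a median of 7.04, and the anti-PD-1 group wide, at 3.56, 137.5, 5.31, 20.4, 95.6, 5.60, 10.1 and 13.6 CPM. Replicates 2 and 5 carried allograft-like levels and replicates 1, 3, 6 and 7 lay inside or below the isotype range, so the primary groups overlapped. The log2 difference was 2.33 ± 0.50 in the primary sarcomas and −0.18 ± 0.67 in the allografts, and the difference of differences was 2.51 ± 0.84 (95% interval 0.81 to 4.21; adjusted p = 0.512). Without anti-PD-1 primary replicate 2 it was 1.76.

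Gclm, the regulatory subunit of the enzyme that begins glutathione synthesis, was at 49.2 to 62.0 CPM in isotype allografts and 33.7 to 59.6 CPM with anti-PD-1, and at 24.3 to 51.1 and 29.98 to 198 CPM in the primary sarcomas. It gave 1.23 ± 0.43, its catalytic partner Gclc 1.27 ± 0.47, the cystine transporter Slc7a11 1.84 ± 0.77 and thioredoxin reductase Txnrd1 0.87 ± 0.34. Gstm1, a glutathione transferase, gave 1.02 ± 0.41 and G6pdx, the entry enzyme of the pentose phosphate pathway, 0.46 ± 0.21. Heme oxygenase Hmox1 and peroxiredoxin Prdx1 were near 0, at 0.10 ± 0.51 and −0.19 ± 0.32. Among primary sarcomas, replicates 2, 5 and 7 of the anti-PD-1 group had the highest means over the 12 genes, and replicate 5 also had the lowest Ptprc of all 24 tumours, 59.9 CPM, which was not tested as a part of the result, while in the anti-PD-1 allografts replicate 2 was lowest for 8 of 12. The list median stayed between 0.79 and 1.30 when any 1 tumour was left out, and was −0.10 at 0 Gy.

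In the primary sarcomas alone edgeR called 0 of 19327 genes (0%), with a smallest adjusted p of 0.133 and 1955 genes at an unadjusted p below 0.05 (10.1%), 1262 higher (6.53%) and 693 lower (3.59%). Of the lists, 9 of 12 NRF2 genes and 6 of 12 endothelial genes were among the higher ones, and 4 of 8 natural killer genes among the lower ones. The lists were chosen with earlier results of these data known, so the shares over all genes are no test of them. DESeq2 called 45 (0.233%), 36 of them higher with anti-PD-1, and limma called 0, with a smallest adjusted p of 0.469 and 968 genes at an unadjusted p below 0.05. In the 24 irradiated tumours alone the smallest edgeR adjusted p was 0.318. The balance at an unadjusted p below 0.05 was nearer even with the muscle covariate, with 1343 higher and 1208 lower. It was 1368 and 1204 without the tumours with the most and the least muscle RNA. The DESeq2 calls held Nqo1 (adjusted p = 0.00243), Gclm (0.0313), Nr4a1 (0.0366), Mfap3l (0.0169) and Pthlh (0.00223). edgeR called 20 genes, all higher, without anti-PD-1 primary replicate 1, the tumour with the least muscle RNA, again with Nqo1, Gclm, Mfap3l and Pthlh among them. These calls are about the primary sarcomas and not about their difference from the allografts, where edgeR called 0 genes in each of these fits.

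**Figure D2:**
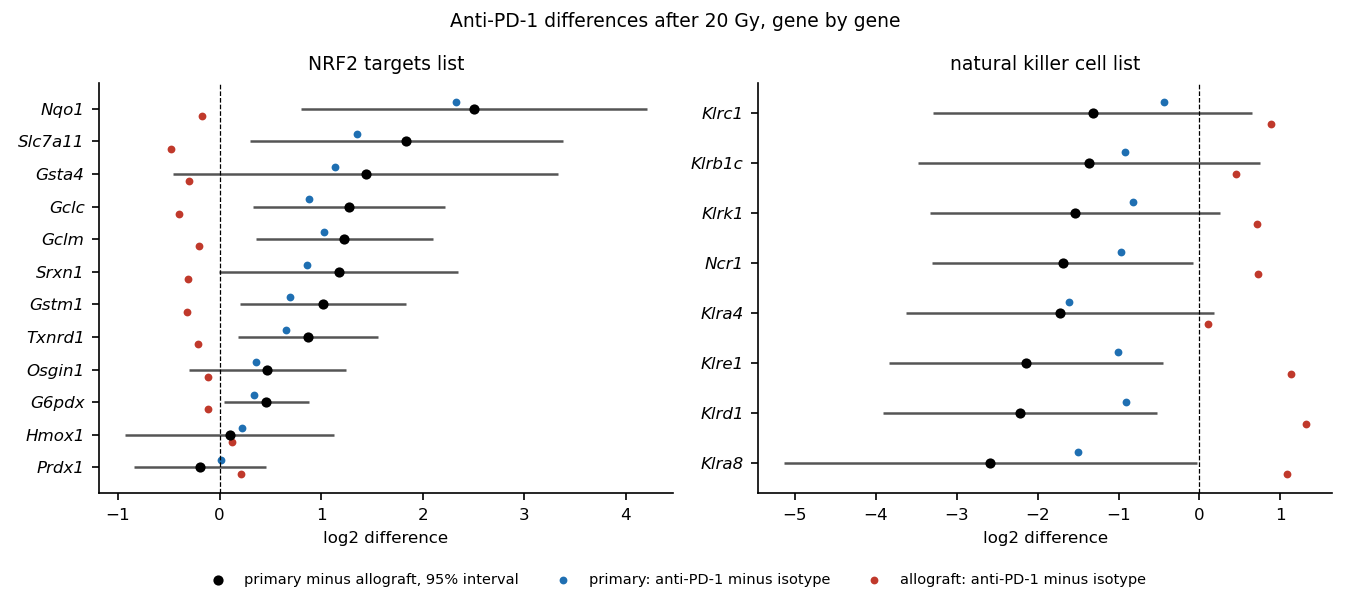
Log2 differences of the 12 NRF2 target genes and the 8 natural killer genes; black points with lines are the difference of differences with its 95% interval, blue points the anti-PD-1 minus isotype difference in primary sarcomas and red points that in allografts. All blue points of the NRF2 list lie above 0 and all natural killer intervals are centred below 0, with red and blue points on opposite sides.

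Stromal genes had no single member that stood out but a shared sign. All 16 extracellular matrix genes were above 0 (median 0.98), all 16 had a positive anti-PD-1 minus isotype difference in the primary sarcomas (median 0.42) and all 16 a negative one in the allografts (median −0.54), and 1 of 16, Mmp13, had an unadjusted p below 0.05, a share near the 4.29% of all genes. Collagenase Mmp13 was at 722, 139.9, 470.5 and 266 CPM in isotype allografts and 508, 40.2, 126.3 and 104.9 CPM with anti-PD-1, and at 8.47 to 31.6 and 4.38 to 63.8 CPM in the primary sarcomas. It gave 1.95 ± 0.81 (adjusted p = 0.512), and 3.09 without anti-PD-1 allograft replicate 1. Collagen Col1a1 gave 1.22 ± 0.89 and tenascin Tnc 1.40 ± 0.98. The low anti-PD-1 allografts were replicates 2 and 3, at mean log2(CPM + 1) values of 8.49 and 8.43 and lowest for 6 and 10 of the 16 genes, the same 2 tumours with the high mitochondrial share. Replicates 1 and 4, at 9.26 and 9.89, lay inside the isotype range of 8.94 to 10.14, and the part of the mitochondrial share was not tested. Primary replicate 8 of the anti-PD-1 group was highest in its group for 9 of 16 members, and the list median was 0.47 without it; without anti-PD-1 allograft replicate 4 it was 1.496.

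Endothelial, hypoxia and immediate early genes were also mostly above 0. Of 12 endothelial genes 10 were, with a median of 0.67, and Tie1, a receptor of vessel lining, gave 0.92 ± 0.48. Of 14 hypoxia and glycolysis genes 13 were, with a median of 0.57 (0.35 without anti-PD-1 primary replicate 5) and Ndrg1 at 0.87 ± 0.48. Car9, the hypoxia-induced carbonic anhydrase, gave 1.85 ± 1.02 and reached 70.4 CPM in 1 anti-PD-1 primary sarcoma at a group median of 2.73 CPM. Of 14 immediate early genes 12 were above 0 (median 0.33, and 0.56 without anti-PD-1 allograft replicate 4), with the nuclear receptors Nr4a1 and Nr4a2 at 1.22 ± 0.75 and 1.41 ± 0.83; Nr4a2 was 2.17 without anti-PD-1 allograft replicate 4. None of these 3 lists had a member with an unadjusted p below 0.05 in the difference of differences.

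Proliferation and p53 target lists had medians that moved with single tumours. Of 20 cell cycle genes 16 were above 0 with a median of 0.34; their median log2 difference was −0.01 in the primary sarcomas and −0.35 in the allografts, where 0 of 20 were positive. Anti-PD-1 allograft replicate 2 was lowest of its group for 19 of 20, with a mean log2(CPM + 1) of 4.74 beside 5.44 to 5.98 in the other 3, and the median of the difference of differences was 0.14 without it and 0.17 without anti-PD-1 primary replicate 5. With the muscle covariate the median was also 0.17. That allograft had the largest mitochondrial share of counts, 2.71%, and the most muscle RNA of the allografts. The part of either was not tested. Mki67, the proliferation antigen, gave 0.40 ± 0.43, and 0.19 without anti-PD-1 primary replicate 5 and 0.84 without anti-PD-1 allograft replicate 4. Among 16 p53 targets, in tumours whose primary form was made by deleting p53, the median was −0.15, and 0.105 without anti-PD-1 allograft replicate 2, which was highest of its group for 11 of 16. The death receptor Fas gave −1.15 ± 0.49 and the apoptosis gene Bax −0.65 ± 0.25 (adjusted p = 0.512 for both), the only 2 of 16 with an unadjusted p below 0.05, where 5.36% of all genes had one in that direction. Fas was at 10.9 to 13.9 CPM in isotype allografts and 17.9 to 27.9 CPM with anti-PD-1, which do not overlap, as in 0.973% of all genes, and 1 other p53 target had every anti-PD-1 allograft below. The cell cycle inhibitor Cdkn1a gave −0.03 ± 0.39. Skeletal muscle genes had a median of 0.30, which ran from −1.16 to 1.33 when 1 tumour was left out, with wide errors, as in myoglobin Mb at 1.33 ± 1.98.

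**Figure D3:**
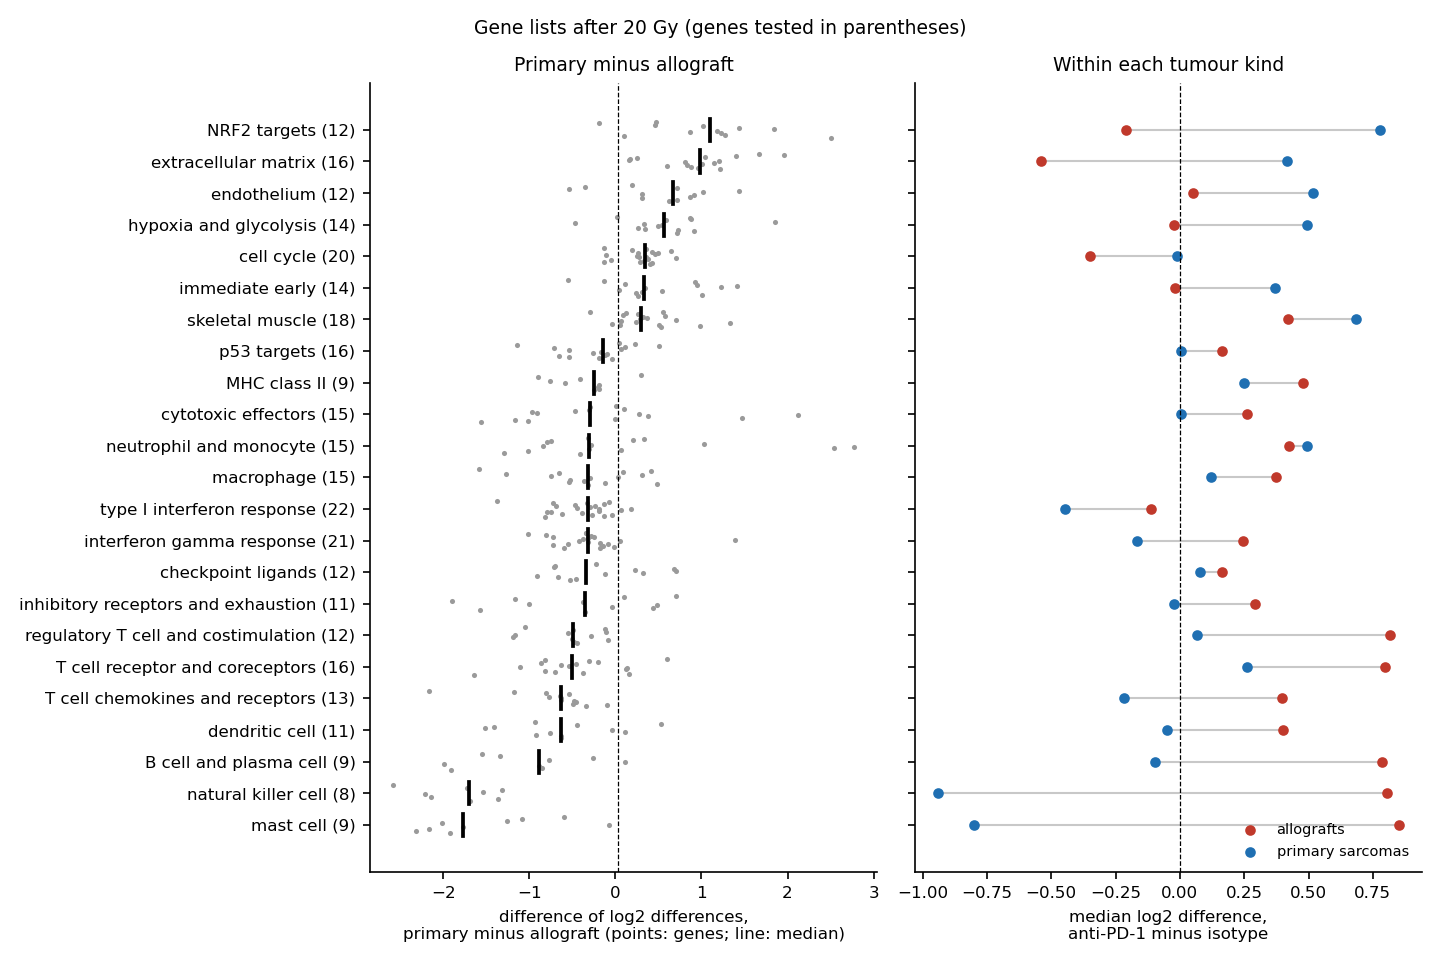
Left, the difference of differences of each gene (points) and its median (line) in 23 gene lists, with the number of genes tested in parentheses and a dashed line at the median of all genes (0.03); right, the list medians of the anti-PD-1 minus isotype log2 difference in allografts (red) and primary sarcomas (blue). NRF2 and extracellular matrix lists lie at the top, natural killer and mast cell lists at the bottom, and most lymphoid lists have the allograft median to the right of the primary one.

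Across all genes the 10 with the smallest p in each direction, at a mean of at least 5 CPM in some group, were examined whatever their adjusted p, which was 0.512 for each. On the higher side Pthlh, parathyroid hormone-like hormone on chr6:147252101-147264183, was at 119.5, 73.4, 83.6 and 106.5 CPM in isotype allografts and 110.2, 13.2, 64.7 and 109.9 CPM with anti-PD-1. The isotype primary sarcomas stood within 2.39 and 2.86 CPM except replicate 8 at 0.476 CPM, and the anti-PD-1 ones were at 0.739, 18.6, 11.3, 10.7, 40.5, 8.20, 2.75 and 4.69 CPM. Thus 6 of 8 anti-PD-1 primary sarcomas exceeded every isotype one. The difference of differences was 2.75 ± 0.84 (95% interval 1.06 to 4.45).

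Mfap3l gave 1.94 ± 0.58, Tanc1 1.70 ± 0.49, the decoy death receptor Tnfrsf22 1.61 ± 0.46 and Klhl3, a substrate adaptor of a cullin ubiquitin ligase, 1.30 ± 0.40. H6pd, which makes NADPH in the endoplasmic reticulum, gave 0.76 ± 0.22; it was at 80.1 to 130 CPM in isotype and 67.8 to 103.8 CPM in anti-PD-1 allografts, and at 70.4 to 121.9 and 97.6 to 163 CPM in the primary sarcomas. Calcoco1 and Tmco3 gave 0.80 ± 0.24 and 0.76 ± 0.23. For each of these 7 genes the primary sarcomas had the positive and the allografts the negative anti-PD-1 minus isotype difference. They were chosen by a high primary minus allograft value, which favours that pattern, and 60.8% of all genes had opposite signs in the 2 kinds.

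The mineralised-matrix genes Dmp1 and Phex led the list because of 1 tumour. Dmp1, dentin matrix protein on chr5:104202613-104214102, was at 61.7 CPM in isotype allograft replicate 3, at 1.27 to 1.90 CPM in the other 3 isotype allografts and at 0.653 to 2.77 CPM with anti-PD-1. Phex, the endopeptidase of phosphate balance, was at 14.7 CPM in the same tumour and 1.58 to 2.30 CPM in the other 3. Primary values of Dmp1 ran from 0.0622 to 1.96 CPM with isotype and 0.192 to 11.3 CPM with anti-PD-1. The difference of differences was 6.06 ± 1.48 for Dmp1, which DESeq2 called at an adjusted p of 0.0115, and 2.53 ± 0.72 for Phex; without that tumour the values were 2.68 and 1.19.

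On the lower side Rian, an imprinted long noncoding RNA on chr12:109603940-109661716, was at 4.83, 11.0, 11.2 and 3.32 CPM in isotype allografts and 4.94, 51.3, 10.5 and 17.7 CPM with anti-PD-1. Primary sarcomas ran from 71.4 through 173 to 289 CPM with isotype and from 20.9 through 83.5 to 119.9 CPM with anti-PD-1. Most anti-PD-1 primary sarcomas lay below most isotype ones, while anti-PD-1 allograft replicates 2 and 4 lay above every isotype allograft and replicate 2 was by far the higher. The value was −2.61 ± 0.65 (95% interval −3.91 to −1.30), and −1.65 without replicate 2. Rgs18, a regulator of G-protein signalling in platelets and myeloid cells, gave −3.13 ± 0.81 and was also highest in that tumour, at 7.34 CPM beside 0.546 to 3.26 CPM in the other 3.

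Hpx, hemopexin, a heme-binding plasma protein of the liver on chr7:105591613-105600137, was at 46.2 CPM in anti-PD-1 allograft replicate 3 and at 0.870 to 1.25 CPM in the other 3, the same tumour in which Alb was at 303 CPM. It gave −5.12 ± 1.46, and −1.54 without that tumour. The 9 liver transcripts, a list chosen after seeing the data, had a median of −5.70, and −0.19 without it. Under the liver covariate, the mean log2 CPM of these transcripts, 1001 genes had an unadjusted p below 0.05. This covariate was itself unequal in irradiated primary sarcomas, where its medians were 0.57 for isotype tumours and −2.99 for anti-PD-1 tumours. That count therefore cannot separate liver RNA from antibody, and the part of liver RNA in other values was not tested. Lyz1, a lysozyme, gave −3.65 ± 1.07 at group medians under 6 CPM. The remaining lower genes were smaller in size: AI662270 −1.48 ± 0.45, Ermard −1.24 ± 0.35, Zfp943 −0.94 ± 0.27, the plasminogen receptor Plgrkt −0.91 ± 0.28, Ankrd49 −0.71 ± 0.22 and Zcchc7 −0.70 ± 0.19. Zcchc7 was at 14.5 to 22.5 CPM in isotype and 16.9 to 26.6 CPM in anti-PD-1 allografts, and at 19.1 to 29.7 and 13.6 to 20.98 CPM in the primary sarcomas. Ermard was −0.72 and Zfp943 −0.58 without anti-PD-1 allograft replicate 2.

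Skint3, of an epidermal gene family with similar copies, was called by DESeq2 at an adjusted p of 7.58e-07, but it was at 0 CPM in all isotype allografts and in 3 of 4 anti-PD-1 allografts and at 1.90 CPM in replicate 1. Its fitted value of −21.9 is set by these zeros and is no estimate of size. edgeR gave it an adjusted p of 0.512.

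**Figure D4:**
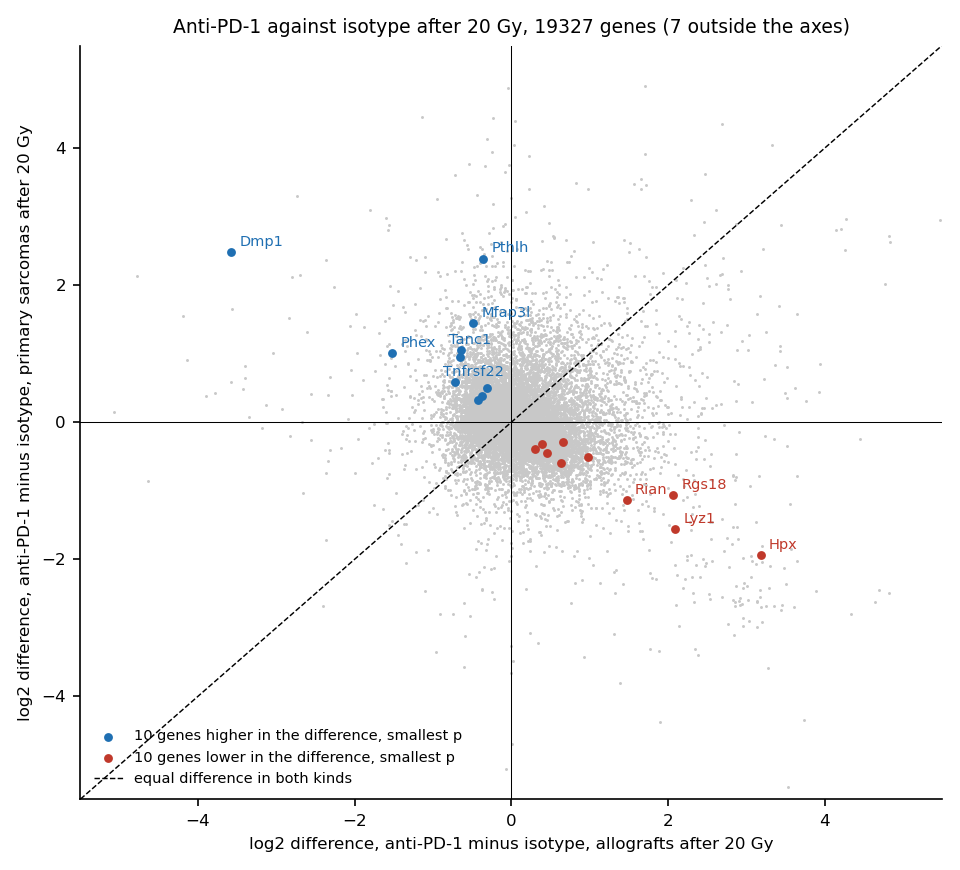
Anti-PD-1 minus isotype log2 difference in irradiated primary sarcomas (vertical) against that in irradiated allografts (horizontal) for 19327 genes, 7 of which lie outside the axes; blue and red points are the 10 genes with the smallest p on either side, and the dashed diagonal marks an equal difference in both kinds. The cloud has no upward slope, and Hpx lies at the lower right.

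The 2 anti-PD-1 comparisons share no tumour. Across the 19327 genes, which are not independent, the log2 differences in primary sarcomas and allografts had a Pearson r of −0.14 and a Spearman rho of −0.21, and 60.8% of genes had opposite signs. Without anti-PD-1 allograft replicate 3 the r was 0.07 and the rho −0.13, and without replicate 2 they were −0.20 and −0.28, so the sign of r rests on 1 tumour. Of 79 genes with an unadjusted p below 0.05 in both kinds, 57 (72.2%) had opposite signs. In the allografts alone edgeR called 0 genes (0%), with 514 at an unadjusted p below 0.05 (2.66%), 2.12% higher and 0.543% lower, and DESeq2 called 1, Skint3 (0.00517%). That balance was not stable: limma had 462 higher and 673 lower, and edgeR had 595 and 573 without anti-PD-1 replicate 1 and 956 and 1024 without replicate 4.

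The same contrast in the 24 unirradiated tumours gave 0 genes in edgeR, 146 at an unadjusted p below 0.05 (0.755%; 0.393% higher, 0.362% lower) and 1 in DESeq2 (0.00517%). The difference between the 20 Gy and the 0 Gy contrast, tested directly, gave 0 genes, 1037 at an unadjusted p below 0.05 (5.37%, of which 2.57% higher and 2.79% lower) and 0 in DESeq2. Neither near-even balance held with DESeq2 size factors in edgeR. The dose difference then had 340 higher and 750 lower, and the 0 Gy contrast 96 and 47. For Nqo1 the 0 Gy value was 0.20 beside 2.51 after 20 Gy (unadjusted p of the dose difference 0.056), for Pthlh −0.35 beside 2.75 (0.011), for Klrd1 −0.74 beside −2.22 (0.215) and for Ctla4 0.56 beside −1.58 (0.103), none past the adjusted threshold. These genes were singled out for their p after 20 Gy. That contrast is part of the dose difference, so their unadjusted p-values are biased low and do not show that a value is particular to 20 Gy. Across genes the 2 contrasts had an r of −0.06.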

How the data were processed

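Poly(A) RNA of 48 mouse tumours was sequenced in stranded libraries; the 24 irradiated ones are compared. The authors deposited raw whole-number counts per Ensembl gene (36854 genes), and the submitters' processing notes name Trimmomatic 0.36, STAR, HTSeq and mm10; whether counting used strand is not given in the sources used here. GENCODE M21 named 36796 genes. Groups came from the labels; p-values measure the spread between tumours of a group. Counts of the 68 within-group pairs differed by far more than sampling noise.

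Genes were filtered by filterByExpr and scaled by TMM; 1 coefficient per group was fitted to all 48 tumours with edgeR 4.0.16 (quasi-likelihood, Benjamini-Hochberg over 19327 genes, threshold 0.05), with limma 3.58.1 (voom with group quality weights, a change of both method and weighting) and DESeq2 1.42.0 as alternatives, in R 4.3.3. Other alternatives were DESeq2 size factors, no filter, muscle, Xist or identifier-digit covariates, the 24 irradiated tumours alone and each of those 24 left out in turn. The script was tested on simulated data. SE is the log2 difference over the square root of F. Genes named by rule, 64 in all, were the 10 with the smallest p each way, a 22-gene panel, the smallest p of each list and DESeq2 or limma calls. Further genes, among them other list members, Mndal and Oas1c, were named outside this rule with their values known. The members and lists were chosen with earlier results of these data known. The liver covariate and the fit without muscle extremes were added after seeing the data. Results for 2 panel genes are not reported here; they stay in the list counts.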

Additional observations from a re-analysis of the deposited data

Results flagged for a closer look

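A tumour was marked where its gap to the nearest other tumour took up most of its group's range (Dixon's test at the 95% level). In all, 256 groups of tumours were checked and 19 were marked. Chance marks about 1 in 20 groups of unselected, normally distributed values. Many genes here were named for their values, so the number marked cannot be set against that rate. In the isotype allografts replicate 3 was high for Dmp1 (61.7 CPM) and Phex (14.7 CPM). Replicate 1 was high for Ankrd49 (18.7 CPM), Adgre1 (343 CPM) and Herc6 (64.4 CPM) and low for Tie1 (28.9 CPM). Replicate 2 was low for AI662270 (5.63 CPM) and replicate 4 high for Prf1 (56.9 CPM).

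In the anti-PD-1 allografts replicate 2 was high for Ptprc (619.8 CPM) and Adgre1 (583 CPM) and low for Prf1 (19.4 CPM). Replicate 3 was high for Hpx (46.2 CPM). Replicate 1 was low for Tigit (4.99 CPM) and high for Skint3 (1.90 CPM, the other 3 at 0).

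In the isotype primary sarcomas replicate 3 was high for Zcchc7 (29.7 CPM) and Mmp13 (31.6 CPM) and replicate 8 low for Pthlh (0.476 CPM). In the anti-PD-1 primary sarcomas replicate 5 was low for Gzmb (4.91 CPM) and high for Mki67 (163 CPM).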

How the results depend on the processing

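No paired analysis was possible because the labels give no replicate numbers shared between groups. With n of 4 allografts a group, the median standard error of the difference of differences was 0.44. edgeR called 0 genes in it under each alternative fitted, limma 0 and DESeq2 2. Genes with an unadjusted p below 0.05 numbered 1001 with the liver covariate and 811 to 3286 leaving out 1 tumour, fewest without anti-PD-1 allograft replicate 3, most without replicate 4; they numbered 1026 without isotype replicate 4 and 962 without anti-PD-1 replicate 2. In primary sarcomas edgeR calls numbered 1 with the muscle covariate, 25 without the muscle extremes and 0 to 20 leaving out 1 tumour, and DESeq2's 45; DESeq2 called 1 in allografts and 1 at 0 Gy. Dmp1 was 6.07 and Skint3 −21.9 in DESeq2.

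The sign was reversed with the liver covariate for Pdcd1 (0.41), Ifng (0.34), Cxcl9 (0.21), Havcr2 (0.33) and Cdkn1a (0.0573); with the muscle covariate for Cd3e (−0.0556), Havcr2 (0.0192), Cdkn1a (0.0556) and Mb (−1.30); with the identifier digit for Cdkn1a (0.0149); without the muscle extremes for Cd3e (−0.90), Cd8a (−0.76) and Mb (−1.32); in limma, which also changed the weights of the groups, for Cd3e (−1.17), Cd8a (−0.66), Prf1 (−0.0001) and Mb (−3.01); and on the log2 CPM scale of the permutation test for Cd3e (−0.97) and Cd8a (−0.53). Leaving out 1 tumour, values ranged from −1.02 to 0.48 for Cd3e, −0.79 to 0.42 for Cd8a, −0.17 to 0.0945 for Havcr2, −0.22 to 0.22 for Cdkn1a, −1.30 to 0.14 for Pdcd1, −0.93 to 0.23 for Ifng, −0.0145 to 0.51 for Prf1, −1.55 to 0.031 for Foxp3, −0.72 to 0.0666 for Cxcl9, −0.15 to 0.90 for Tigit, −0.52 to 0.15 for Adgre1 and −1.54 to 2.08 for Mb. The regulatory T cell list median ranged from −1.44 to −0.22 and the liver list from −8.07 to −0.19, and was 0.08 with the liver covariate; the mast cell median was −0.21 with the identifier digit. The cause was not tested. Other values of the 64 genes named by rule kept their sign and side of the threshold (2140 of those computed). For further genes given in the text the alternatives are not reported.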
